A study of Mus musculus with 4 samples.

Results

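The proteasome is the barrel-shaped protease that breaks down ubiquitin-tagged proteins, and the genes described are the 47 columns of the expression table, out of 12763 genes in all, whose symbols start with Psma, Psmb, Psmc, Psmd, Psme or Psmg. They were taken by name and not by their values. By role they are 7 alpha ring subunits, 4 structural beta ring subunits, the 3 constitutive catalytic subunits Psmb5, Psmb6 and Psmb7, the 3 immunoproteasome catalytic subunits Psmb8, Psmb9 and Psmb10, 6 ATPases, 11 other regulatory particle subunits, 3 chaperones of the regulatory base, the 3 PA28 activator genes Psme1 to Psme3, the PA200 activator Psme4, 4 core assembly chaperones Psmg1 to Psmg4 and Psme2b, a retrogene of Psme2. The remaining column, Psmc3ip, carries the prefix only, since it encodes a recombination factor named after an ATPase it binds.

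Each proteasome core is a stack of outer alpha rings around inner beta rings, and 3 kinds of beta subunit cut peptide bonds. In lymphocytes, and in other cells exposed to interferon, Psmb9, Psmb10 and Psmb8 are built into new particles in the beta1, beta2 and beta5 places that Psmb6, Psmb7 and Psmb5 hold in the constitutive form. The resulting immunoproteasome, often capped by the PA28 ring of Psme1 and Psme2, changes which peptides reach class I molecules through the Tap1-Tap2 transporter, and activated T cells also lean on proteasomes to clear damaged proteins as they grow and divide.

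The study sequenced CD8 T cells, the cytotoxic lymphocytes, of C57BL/6 bone marrow chimaeras that carried B16K1 melanoma under the skin, and asked how the costimulatory receptor CD137, encoded by Tnfrsf9, acts in them. Each of the 4 libraries was made with the 5′ 10x chemistry from cells pooled from 7 mice 21 days after tumour inoculation. The tumour CD137 minus and spleen CD137 minus libraries hold cells from the donor whose marrow carried Cd4cre, Cd137fl/fl and ROSA26tomato, and the tumour CD137 plus and spleen CD137 plus libraries hold cells from the Cd137fl/fl ROSA26tomato donor without Cre, out of the same lethally irradiated (8 Gray) hosts. Cd4cre is active in all T cells that pass through the thymus, so CD137 was removed from CD4 T cells of that donor too, and loss of CD137, presence of Cre and donor marrow cannot be told apart. The labels disagree on which donor is tomato positive, and the groups were therefore taken from the stated CD137 status. No label ties a cell to a mouse, so every group is 1 sample, no difference below has a replicate check, and no p-value is given.

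The table held 1262 tumour CD137 minus, 2766 tumour CD137 plus, 2464 spleen CD137 minus and 473 spleen CD137 plus cells. Its values are natural logs of 1 plus a whole number, and summing those whole numbers over a library gave 5833074, 9886083, 9519354 and 2382912 corrected counts in the same order. The median total per cell ran between 3587 and 5210 and the totals within a library lay in a narrow band, so levels are given as CPM, the counts divided by the library's own sum and scaled to a sum of 1e+06. Tnfrsf9 stood at 59.5 CPM in tumour CD137 minus against 438 CPM in tumour CD137 plus cells, while it was at 2.42 CPM in spleen CD137 minus against 16.8 CPM in spleen CD137 plus cells, in the direction of the labels. All 8 CD8 T cell markers had values in each library, with summed levels between 5814 and 7520 CPM. Markers of other cells were summed in the same way: B cell markers came to between 359 and 554 CPM, macrophage markers to between 119 and 323 CPM, plasmacytoid markers to between 215 and 414 CPM, melanoma markers to at most 35.5 CPM, CD4 T cell markers to at most 12.7 CPM and NK cell markers to between 17.8 and 103 CPM, with the B cell genes Cd79a and Ms4a1 at 0 in tumour CD137 minus cells. Their part in the results was not tested. Ribosomal protein genes took between 30.1% and 41.1% of a library's counts, and 19 cell barcodes occurred in 2 libraries.

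Because the question is which catalytic set the cells use, promoter windows are shown first. They are those of the catalytic genes, except Psmb7, for which no window was found, and of the PA28 gene Psme1. Each runs from 250 bases before to 50 bases after the RefSeq transcription start on build GRCm38.p6, 5′ to 3′ on the gene's strand. Capitals mark matches to the interferon regulatory factor element, which is GAAA, any 2 bases and GAAA again, or to the gamma-activated sequence TTCNNNGAA, searched on both strands. Psmb8 (chr17:34197945-34198244, plus strand), Psmb9 (chr17:34187281-34187580, minus strand) and Psmb10 (chr8:105938343-105938642, minus strand) are the immunoproteasome genes. Psme1 (chr14:55578244-55578543, plus strand) is the activator gene with a match, and Psmb5 (chr14:54617946-54618245, minus strand) and Psmb6 (chr11:70525107-70525406, plus strand) stand for the constitutive set.
Psmb8: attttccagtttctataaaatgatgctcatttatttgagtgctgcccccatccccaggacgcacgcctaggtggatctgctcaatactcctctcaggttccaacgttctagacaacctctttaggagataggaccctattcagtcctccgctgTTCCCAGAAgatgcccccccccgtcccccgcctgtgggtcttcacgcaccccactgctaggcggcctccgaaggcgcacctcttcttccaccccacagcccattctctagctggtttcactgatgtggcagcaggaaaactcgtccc
Psmb9: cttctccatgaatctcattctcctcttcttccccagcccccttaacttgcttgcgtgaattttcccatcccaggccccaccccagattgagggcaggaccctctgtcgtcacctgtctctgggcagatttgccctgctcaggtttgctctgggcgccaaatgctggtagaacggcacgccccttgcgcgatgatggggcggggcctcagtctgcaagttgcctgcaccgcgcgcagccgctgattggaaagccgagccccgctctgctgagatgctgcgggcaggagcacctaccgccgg
Psmb10: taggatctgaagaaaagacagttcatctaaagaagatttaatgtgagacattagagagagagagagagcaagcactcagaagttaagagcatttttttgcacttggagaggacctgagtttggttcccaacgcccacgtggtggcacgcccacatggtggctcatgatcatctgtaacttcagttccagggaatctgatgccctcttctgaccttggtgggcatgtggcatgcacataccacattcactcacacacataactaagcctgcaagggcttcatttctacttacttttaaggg
Psme1: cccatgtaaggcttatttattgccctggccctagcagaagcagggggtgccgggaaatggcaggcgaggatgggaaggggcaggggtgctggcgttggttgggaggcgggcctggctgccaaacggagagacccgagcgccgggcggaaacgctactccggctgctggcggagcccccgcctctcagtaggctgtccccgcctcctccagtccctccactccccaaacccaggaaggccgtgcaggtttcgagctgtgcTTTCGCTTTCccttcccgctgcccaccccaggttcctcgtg
Psmb5: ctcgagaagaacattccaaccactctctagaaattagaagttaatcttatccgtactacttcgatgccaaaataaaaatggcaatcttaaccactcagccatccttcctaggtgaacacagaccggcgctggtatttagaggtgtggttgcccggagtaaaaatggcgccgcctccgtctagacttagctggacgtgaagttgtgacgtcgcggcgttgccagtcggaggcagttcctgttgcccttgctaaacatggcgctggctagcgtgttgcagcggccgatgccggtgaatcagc
Psmb6: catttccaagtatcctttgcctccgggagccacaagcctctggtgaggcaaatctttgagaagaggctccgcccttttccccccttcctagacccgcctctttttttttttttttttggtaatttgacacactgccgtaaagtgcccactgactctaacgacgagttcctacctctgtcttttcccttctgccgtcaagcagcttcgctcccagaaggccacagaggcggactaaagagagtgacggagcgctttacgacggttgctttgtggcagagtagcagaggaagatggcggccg
The Psmb8 window held 1 gamma-activated sequence, with its first base at position -97, and the Psme1 window held 1 interferon regulatory factor element, with its first base at position 10. Neither window held the other motif, and the 4 other windows shown held neither. The windows of Psme2, which are not shown, held neither motif. The Psmb8 and Psmb9 windows lie inside the genes as GENCODE places them, 34197721 to 34201454 and 34181987 to 34187764. The sequence upstream of those annotated 5′ ends was therefore not searched for these 2 genes. Windows were found for 40 of the 47 members, 43 windows in all. The interferon regulatory factor element was in 5 of the 43 (11.6%), those of Psmb3, Psmd4, Psmd9, Psme1 and Psmg4, against 3.44% of all promoter windows, and the gamma-activated sequence was in 3 of the 43 (6.98%), those of Psmb8, Psmd2 and Psmg1, against 8.30% of all windows. The antioxidant response element TGACNNNGC, the core of the sites that proteasome-inducing stress factors bind, was in 6 of the 43 (13.95%), among them Psmb5 and Psmb6, against 12.4% of all windows. A match is a description of the letters and not a binding site. Psmb8 and Psmb9 lie within the class II region of chromosome 17 beside the transporter genes: in the GENCODE annotation Psmb9 (34181987 to 34187764, minus strand) and Tap1 (34187553 to 34197225, plus strand) overlap at their 5′ ends, so that counts of these 2 genes may share molecules unless strand was used in counting, which no source used here states.

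The 3 immunoproteasome genes together came to 1061, 1275, 1227 and 1168 CPM and the 3 constitutive genes to 369, 456, 377 and 362 CPM in tumour CD137 minus, tumour CD137 plus, spleen CD137 minus and spleen CD137 plus cells. Psmb8, the beta5 immunoproteasome subunit, stood at 652 CPM (95% exact Poisson interval 631 to 673) in tumour CD137 minus, 807 CPM (789 to 825) in tumour CD137 plus, 757 CPM (740 to 775) in spleen CD137 minus and 687 CPM (654 to 721) in spleen CD137 plus cells. Psmb9, the beta1 form, stood at 251, 286, 245 and 253 CPM in the same order of libraries, a narrow range. Psmb10, the beta2 form, stood at 158 CPM (148 to 169) and 182 CPM (173 to 190) in the tumour CD137 minus and plus libraries and at 225 CPM (216 to 235) and 228 CPM (210 to 248) in the spleen CD137 minus and plus libraries. Among the 3 immunoproteasome genes, Psmb10 alone had both tumour levels below both spleen levels. How many of all genes separate by tissue in this way, here or below, was not counted.

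Among the constitutive genes, Psmb5 stood at 157, 187, 163 and 157 CPM and Psmb6 at 155, 188, 161 and 150 CPM in tumour CD137 minus, tumour CD137 plus, spleen CD137 minus and spleen CD137 plus cells. Psmb7 stood at 57.3, 81.0, 53.0 and 55.4 CPM in that order. For all 3 the tumour CD137 plus library was the highest in CPM and the other 3 libraries lay close together. Ribosomal protein genes took the smallest part of the counts in that library, 30.1%, and the CPM order depends on that part. These are 5′ molecule counts that were not divided by gene length and say nothing of how many protein subunits each gene supplies, so below they are compared between groups of cells and not between genes. The intervals of levels and shares, here and below, treat corrected counts as if they were counted molecules. They are therefore nominal, and cover neither the correction nor differences between mice.

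The PA28 genes Psme1 and Psme2, which form the interferon-induced cap, stood at 623, 638, 716 and 704 CPM and at 431, 513, 494 and 459 CPM. Psme3, the nuclear PA28 form, stood at 33.4, 46.1, 47.8 and 53.3 CPM, and Psme4, the PA200 cap, at 15.9, 14.5, 11.1 and 10.5 CPM, which is below the level of 20 CPM needed for a ratio. The core chaperones Psmg1 and Psmg4, which help to build the alpha ring, were higher in both spleen libraries: Psmg1 stood at 20.1 and 18.3 CPM in the tumour CD137 minus and plus libraries and at 34.6 and 27.7 CPM in the spleen CD137 minus and plus libraries, and Psmg4 at 45.3 and 43.9 CPM in tumour and at 65.6 and 58.8 CPM in spleen. Psmg2 stood between 39.1 and 44.9 CPM and Psmg3 between 15.1 and 21.3 CPM. Psme2b and Psmc3ip did not pass 20 CPM in any library. Summed over a role, the alpha ring genes came to 1117, 1340, 1162 and 1099 CPM, the regulatory particle genes to 934, 1122, 963 and 935 CPM and the ATPases, which unfold the substrate, to 493, 564, 512 and 522 CPM. The tumour CD137 plus library was highest in each in CPM, an order that depends on the total used. With ribosomal protein genes out of the total, 21 of 45 members lay above 0 in tumour over spleen of CD137 plus cells, with a median log2 ratio of -0.017.

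**Figure D1:**
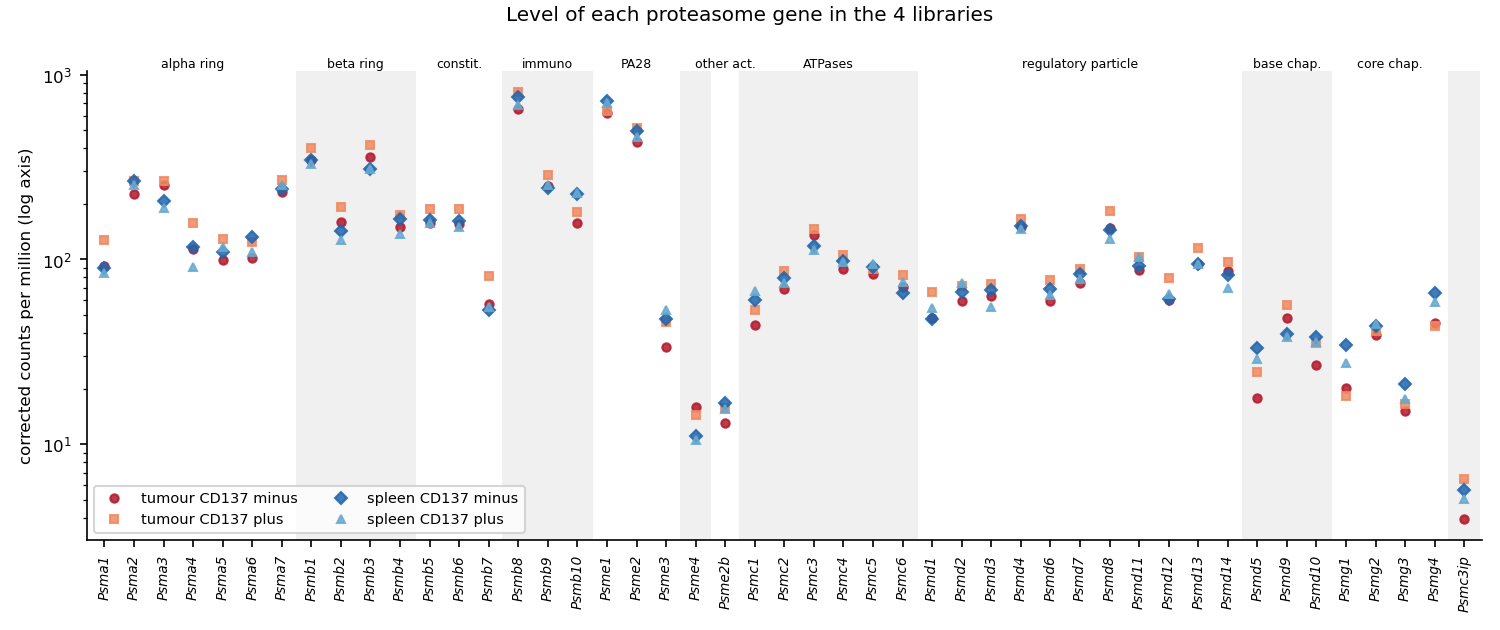
Level of each of the 47 members in the 4 libraries, in CPM on a log axis, with genes grouped by role and 1 point per library. Psmb8, Psme1 and Psme2 have the highest counts, between 431 and 807 CPM, and Psmc3ip the lowest, between 3.94 and 6.47 CPM.

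The share of the catalytic counts that came from the immunoproteasome genes needs no scaling between libraries, since it is taken within each group of cells. It was 74.2% (95% exact Clopper-Pearson interval 73.2 to 75.1) in tumour CD137 minus cells and 73.6% (73.0 to 74.3) in tumour CD137 plus cells, against 76.5% (75.8 to 77.2) in spleen CD137 minus and 76.3% (74.9 to 77.7) in spleen CD137 plus cells. The CD137 minus and plus intervals overlapped in both tissues. The tumour and spleen intervals were apart in both CD137 states. Without the cycling cells described below, the tumour CD137 minus share was 75.2% (74.2 to 76.2), and that interval overlapped the one of all spleen CD137 minus cells. The tumour CD137 plus share was then 74.2% (73.5 to 74.9), whose interval met that of all spleen CD137 plus cells at its end.

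Pair by pair, the tissue difference was widest in the beta2 place. Of the counts of Psmb10 and Psmb7, Psmb10 made up 73.4% (70.9 to 75.9) in CD137 minus tumour cells and 69.1% (67.3 to 70.9) in tumour CD137 plus cells, against 80.9% (79.4 to 82.4) in spleen CD137 minus and 80.5% (77.3 to 83.4) in spleen CD137 plus cells, with intervals that met at their ends between the tumour libraries and were apart between tissues. The beta1 pair did not follow it: Psmb9 made up 61.9%, 60.4%, 60.4% and 62.8% of the counts of Psmb9 and Psmb6 in tumour CD137 minus, tumour CD137 plus, spleen CD137 minus and spleen CD137 plus cells. The share of Psmb8 in the beta5 pair with Psmb5 was 80.6%, 81.2%, 82.3% and 81.4% in that order, and its 4 intervals overlapped, as did those of the beta1 pair.

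The tumour cells were then divided by whether Pdcd1, the gene of the checkpoint receptor PD-1, had any count. Pdcd1 had a value in 514 of 1262 tumour CD137 minus cells (40.7%, 38.0 to 43.5) and in 1527 of 2766 tumour CD137 plus cells (55.2%, 53.3 to 57.1), against 33 of 2464 spleen CD137 minus cells (1.34%) and 12 of 473 spleen CD137 plus cells (2.54%). A cell without a count may still express the gene. The immunoproteasome share barely moved with this split: it was 74.1% in cells with Pdcd1 above 0 and 74.3% in cells with Pdcd1 at 0 of the tumour CD137 minus library, and 73.3% and 74.3% in the same order in the tumour CD137 plus library, with overlapping intervals in both.

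Under that level total the beta2 pair differed in both libraries, and the beta1 pair differed the other way in CD137 minus cells. In the beta2 pair, Psmb10 made up 68.1% (64.1 to 72.0) of the counts in tumour CD137 minus cells with Pdcd1 above 0 and 77.7% (74.5 to 80.8) in those with Pdcd1 at 0. In the tumour CD137 plus library the same share was 66.2% (63.8 to 68.6) with Pdcd1 above 0 and 73.0% (70.3 to 75.6) with Pdcd1 at 0, so the intervals were apart in both libraries. With Pdcd1 at 0, the tumour CD137 minus interval overlapped that of all spleen CD137 minus cells, 79.4 to 82.4. The tumour CD137 plus interval stayed below that of all spleen CD137 plus cells, 77.3 to 83.4. In the beta1 pair, Psmb9 made up 65.2% (62.4 to 67.8) with Pdcd1 above 0 and 58.3% (55.4 to 61.2) with Pdcd1 at 0 in the CD137 minus library. In the CD137 plus library the beta1 shares were 61.0% and 59.3% and their intervals overlapped. The beta5 shares were 80.3% and 80.8% in CD137 minus cells and 80.7% and 81.9% in CD137 plus cells, each pair overlapping.

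The beta2 difference was also there without the dividing cells: Psmb10 then made up 69.3% with Pdcd1 above 0 and 79.5% with Pdcd1 at 0 in CD137 minus cells, and 66.8% and 74.4% in CD137 plus cells. With every cell thinned to 2496 counts, the depth of the shallowest cell, the beta2 shares were 67.4% and 76.9% in CD137 minus cells and 65.4% and 73.1% in CD137 plus cells.

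**Figure D2:**
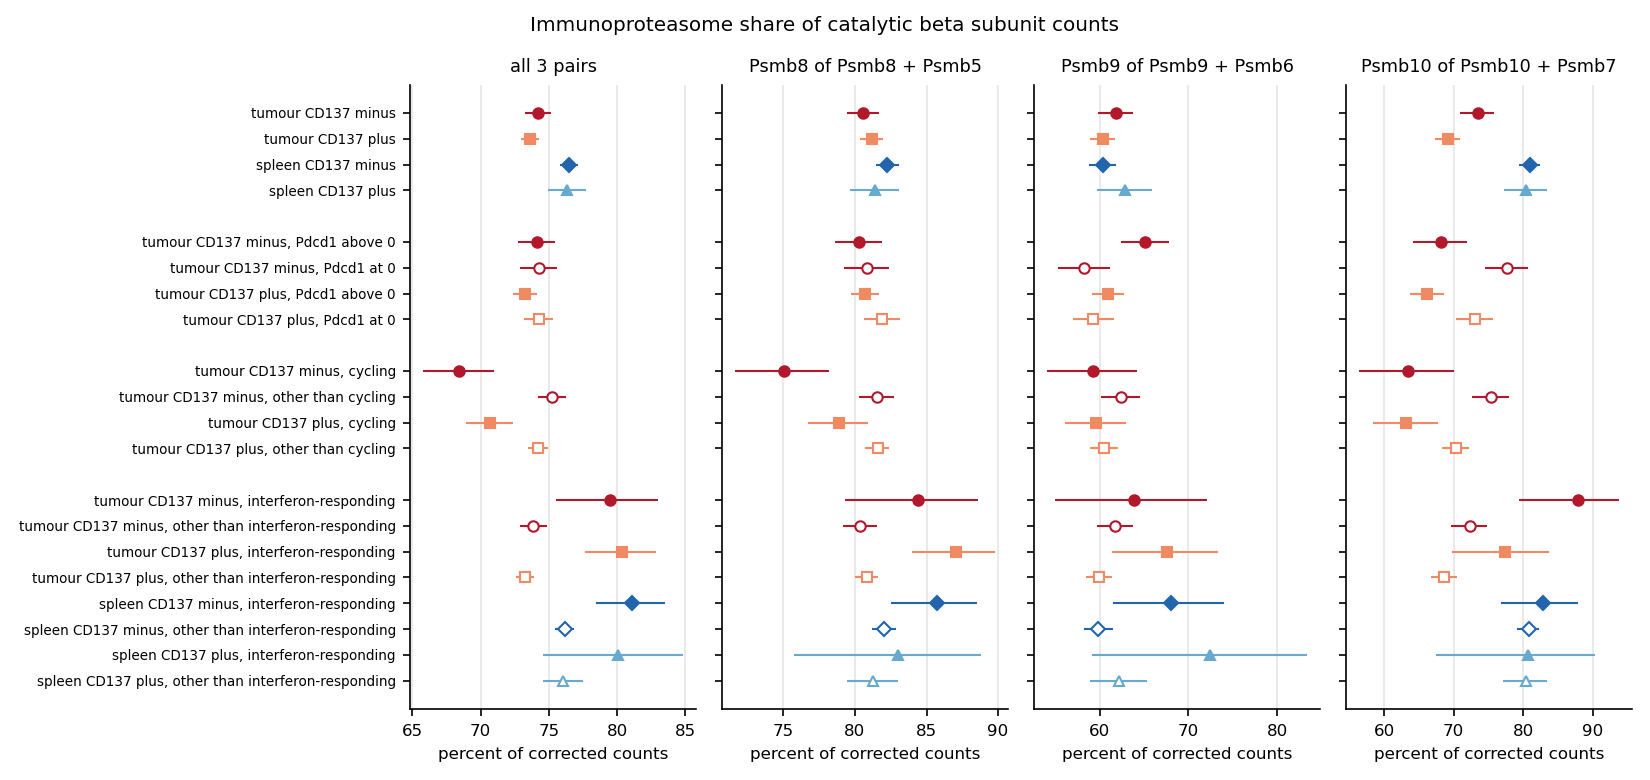
Percent of counts that came from the immunoproteasome gene or genes, with 95% exact intervals, for all 3 pairs together and for each pair, in 20 groups of cells; filled points are the first group of a split and open points are cells with Pdcd1 at 0 or the other cells. The beta2 panel shows both tumour libraries below both spleen libraries and cells with Pdcd1 above 0 below those with Pdcd1 at 0.

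Levels of the single genes gave the same picture. In tumour CD137 minus cells Psmb9 stood at 336 CPM with Pdcd1 above 0 and 193 CPM with Pdcd1 at 0, a log2 ratio of 0.80 with 1 CPM added to each level, and in tumour CD137 plus cells at 322 and 241 CPM, a ratio of 0.42. Psmb7 stood at 75.5 and 44.7 CPM in CD137 minus cells and at 91.4 and 68.1 CPM in CD137 plus cells, log2 ratios of 0.74 and 0.42. Psmb10 stood at 162 and 156 CPM in CD137 minus and at 179 and 184 CPM in CD137 plus cells, ratios of 0.05 and -0.04. Psmb8 had ratios of 0.48 and 0.40, Psmb5 of 0.53 and 0.51 and Psmb6 of 0.38 and 0.32 in the CD137 minus and plus libraries. Psme1 was lower with Pdcd1 above 0 in both, at 575 against 656 CPM (-0.19) in CD137 minus and 596 against 691 CPM (-0.21) in CD137 plus cells, while its partner Psme2 had ratios of 0.13 and 0.07.

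Over all members, a ratio was formed where a gene reached 20 CPM and 5% of cells in 1 of the 2 groups and had a value in both, and a size of 0.5 on the log2 scale was used as a limit that is not a test. A gene that reached 20 CPM in 1 group alone could only come out higher in that group, here and in every other comparison. In tumour CD137 minus cells, 17 of 43 measured members were higher by that much with Pdcd1 above 0 and 0 were lower, against 43.6% higher and 4.31% lower over all genes. In tumour CD137 plus cells 7 of 42 were higher and 0 lower, against 30.8% and 4.16%. The member medians of 0.44 and 0.36 lay beside 0.44 and 0.33 over all genes, so the members as a whole lay where all genes lay. The 7 in CD137 plus cells were the alpha ring genes Psma5 (0.75), Psma4 (0.66) and Psma1 (0.54), the scaffold Psmd1 (0.60), the chaperones Psmd5 (0.60) and Psmd10 (0.50) and Psmb5 (0.51). All but Psmd5 were also higher by 0.5 in CD137 minus cells, where Psmd10, also known as gankyrin (1.00), Psma4 (0.91) and the ATPase Psmc1 (0.91) led. In both libraries 37 of 41 members were above 0, as were 77.8% of all genes, and Psme1 and Psmg4 were below 0 in both. The lowest values were those of Psme1, Psmg1 (-0.17) and Psmg2 (-0.15) in CD137 minus and of Psmg4 (-0.22), Psme1 and Psmb10 in CD137 plus cells. Psme3 had ratios of 0.23 and 0.37, Psmg2 a ratio of 0.16 in CD137 plus cells and Psmg4 of -0.07 in CD137 minus cells. Psme4 was measured in CD137 minus cells alone, at 0.66. It reached 20 CPM with Pdcd1 above 0 alone (20.7 against 12.7 CPM), so its side of 0 was set by the filter. The filter also set the side of Psmd10 (38.4 against 18.8 CPM) and Psmg1 (18.6 against 21.1 CPM) in CD137 minus cells. In CD137 plus cells it set that of Psmd5 (29.0 against 18.8 CPM).

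Ribosomal protein genes moved with the split, at 28.2% of counts with Pdcd1 above 0 and 40.6% with Pdcd1 at 0 in CD137 minus cells and 26.2% and 35.0% in CD137 plus cells. With these genes taken out of the total, 6 and 2 members were higher by 0.5 and the medians were 0.18 in both libraries, beside 0.16 and 0.15 over all genes. Markers of other cells moved with the split too: with Pdcd1 above 0 and at 0, B cell markers summed to 255 and 452 CPM in CD137 minus and to 365 and 790 CPM in CD137 plus cells, NK cell markers to 105 and 27.1 CPM and to 129 and 69.4 CPM, macrophage markers to 251 and 190.3 CPM and to 269 and 391 CPM, plasmacytoid markers to 295 and 376 CPM and to 361 and 481 CPM, melanoma markers to 10.97 and 52.3 CPM and to 36.1 and 32.9 CPM and CD4 T cell markers to 13.5 and 12.1 CPM and to 7.67 and 8.17 CPM. Interferon-stimulated markers summed to 398 and 228 CPM in CD137 minus and to 362 and 348 CPM in CD137 plus cells. Their part in the share and level differences was not tested.

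**Figure D3:**
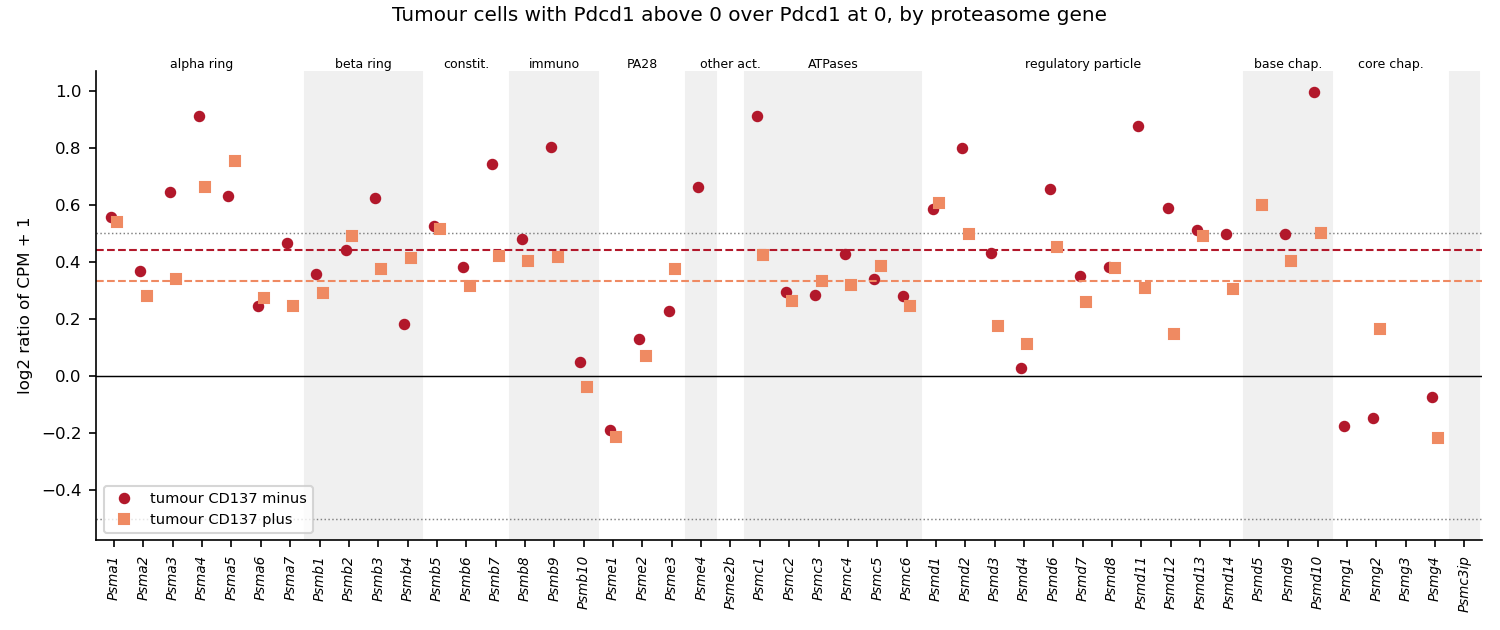
Log2 ratio of each measured member in cells with Pdcd1 above 0 over cells with Pdcd1 at 0, in tumour CD137 minus (red circles) and CD137 plus (orange squares) cells, by role. Dashed lines mark the medians of all genes, 0.44 and 0.33; Psmb10 lies near 0 and Psme1 below it in both libraries while most ring subunits lie above.

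Dividing cells were described in the tumour libraries, as the 126 CD137 minus (9.98%) and 337 CD137 plus (12.2%) cells with counts for at least 2 of 12 cell-cycle genes. Proteasome genes were higher in these cells across nearly all roles. In CD137 minus cells 38 of 45 members were higher by 0.5 in cycling cells and 0 lower, against 42% and 6.73% of all genes, and in CD137 plus cells 28 of 47 were higher and 0 lower, against 21.1% and 3.93%. The member medians were 0.78 and 0.52, beside 0.40 and 0.20 over all genes. In both libraries 44 of 45 members were above 0, as were 64.3% of all genes, and Psme1 was the exception at -0.05 and -0.06.

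The constitutive catalytic genes had medians of 1.00 and 0.61 in the CD137 minus and plus libraries and the immunoproteasome genes of 0.50 and 0.32, though Psmb9 lay level with Psmb5 in CD137 plus cells. Psmb7 stood at 124 CPM in cycling and 49.5 CPM in other cells of the CD137 minus library and at 128 and 74.3 CPM in the CD137 plus library, log2 ratios of 1.30 and 0.78. Psmb5 stood at 286 and 142 CPM (1.00) and at 260 and 177 CPM (0.55), and Psmb6 at 259 and 143 CPM (0.86) and at 270 and 176 CPM (0.61). Psmb8 had ratios of 0.45 and 0.31, Psmb9 of 0.67 and 0.56 and Psmb10 of 0.50 and 0.32. The immunoproteasome share was accordingly 68.4% (65.8 to 71.0) in cycling and 75.2% (74.2 to 76.2) in other CD137 minus cells, and 70.7% (69.0 to 72.4) in cycling and 74.2% (73.5 to 74.9) in other CD137 plus cells, with intervals apart in both.

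Among the structural genes the alpha ring subunit Psma4 stood at 253 CPM in cycling and 97.6 CPM in other CD137 minus cells (1.36) and at 246 and 144 CPM in CD137 plus cells (0.77). Psmd1 had ratios of 1.31 and 0.52 and the core chaperone Psmg3 of 1.09 and 0.94. The other core chaperones were higher too, Psmg1 by 0.62 and 0.35, Psmg2 by 0.68 and 0.71 and Psmg4 by 0.73 and 0.52. Psme2 had ratios of 0.44 and 0.21 and Psme3 of 0.52 and 0.17, and the lowest after Psme1 were Psmd4 (0.10) and Psmb1 (0.17) in CD137 minus cells and Psme3 and Psmb1 (0.18) in CD137 plus cells. Psme4 was measured in CD137 plus cells at 0.61, with 21.1 CPM in cycling and 13.5 CPM in other cells. Psmc3ip, measured in that library at 26.0 CPM in cycling and 3.70 CPM in other cells, had the highest ratio, 2.52, followed by Psmg3, Psmb7 and the beta ring gene Psmb4 (0.78). Psmc3ip and Psme4 passed the CPM filter in cycling cells alone, so their side of 0 was set by the filter. The same holds for Psmg3, at 29.7 against 13.4 CPM in CD137 minus and 29.3 against 14.8 CPM in CD137 plus cells. It holds for Psmg1 too, at 29.7 against 18.9 CPM in CD137 minus and 22.8 against 17.7 CPM in CD137 plus cells.

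Other measures moved with cell division. Ribosomal protein genes took 25.9% of counts in cycling and 36.6% in other CD137 minus cells, and 24.9% and 30.9% in CD137 plus cells. Without them 27 and 11 members were higher by 0.5, and the share of all genes past 0.5 was not counted on that total. The member medians were then 0.57 and 0.40, beside 0.16 and 0.08 over all genes. Melanoma markers summed to 177 CPM in cycling and 19.1 CPM in other CD137 minus cells and to 85.4 and 27.5 CPM in CD137 plus cells. B cell markers came to 225 and 389 CPM in CD137 minus cells and the other way to 1014 and 489 CPM in CD137 plus cells, macrophage markers to 274 and 208 CPM and to 753 and 262 CPM, NK cell markers to 111 and 52.8 CPM and to 132 and 98.5 CPM and plasmacytoid markers to 291 and 349 CPM and to 306 and 430 CPM. Their part in the result was not tested.

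Cells responding to interferon were described in each library as those with counts for at least 3 of the 10 interferon-stimulated marker genes in the table, none of them a proteasome gene. They numbered 48 in tumour CD137 minus (3.80%), 123 in tumour CD137 plus (4.45%), 119 in spleen CD137 minus (4.83%) and 23 in spleen CD137 plus cells (4.86%). The 5 members known as interferon-induced genes, Psmb8, Psmb9, Psmb10, Psme1 and Psme2, were higher in the responding cells in every library, as reported, in the 4 other ways of scaling or gating tried and by the difference of mean deposited values. Psmb10 had the widest gap among the catalytic genes, at 345 against 151 CPM in tumour CD137 minus (1.19), 261 against 178 CPM in tumour CD137 plus (0.55), 339 against 219 CPM in spleen CD137 minus (0.63) and 349 against 222 CPM in spleen CD137 plus cells (0.65). Psmb8 had 932 against 640, 1064 against 795, 1006 against 744 and 973 against 671 CPM in the same order, log2 ratios of 0.54, 0.42, 0.44 and 0.53. Psmb9 had ratios of 0.54, 0.43, 0.43 and 0.49. The cap genes followed, Psme1 with 0.45, 0.44, 0.33 and 0.53 and Psme2 with 0.48, 0.40, 0.20 and 0.61.

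The constitutive counterparts did not share this pattern. Psmb5 had ratios of 0.14, -0.26, 0.04 and 0.37, Psmb6 of 0.41, -0.04, -0.08 and -0.18 and Psmb7 of -0.28, -0.08, 0.42 and 0.62 in tumour CD137 minus, tumour CD137 plus, spleen CD137 minus and spleen CD137 plus cells. Of 42 members measured in all 4 libraries, 9 were above 0 in all 4, against 12% of all genes: the 5 already named, the alpha ring genes Psma3 and Psma5, the beta ring gene Psmb4 and the ATPase Psmc2. Psme3 had ratios between -0.51 and 0.22. The core chaperones scattered, Psmg1 between -0.22 and 0.91, Psmg2 between -1.17 and 0.16 and Psmg4 between -0.51 and 0.72, as did other genes with few counts. The lowest in tumour CD137 minus cells were Psmg2 (-1.17), Psmd1 (-0.33) and Psmb7, in tumour CD137 plus cells Psmd10 (-0.80), Psmd1 (-0.58) and Psmd2 (-0.55), in spleen CD137 minus cells Psme3, Psmd2 (-0.34) and Psmg1, and in spleen CD137 plus cells Psmd9 (-1.19), Psmd1 (-1.14) and Psmc1 (-1.03). The CPM filter set the side of Psmg2 in tumour CD137 minus cells (17.3 against 40.0 CPM). It also set that of Psmd9 in spleen CD137 plus cells (16.6 against 39.3 CPM). The highest were, beside Psmb10, Psme2b in 3 libraries (0.99, 0.62 and 1.49), Psmd10 (0.98) in tumour CD137 minus, Psmg1 (0.91) and Psmg3 (0.71) in tumour CD137 plus, Psmd13 (0.52) in spleen CD137 minus and Psmg3 (2.47) and Psma1 (1.04) in spleen CD137 plus cells. Psme2b passed the CPM filter in responding cells alone, so its side of 0 was set by the filter. It stood at 25.9 against 12.5 CPM in tumour CD137 minus and 25.4 against 16.2 CPM in spleen CD137 minus cells. In spleen CD137 plus cells it stood at 41.6 against 14.1 CPM. The filter also set the side of Psmg3 in tumour CD137 plus (27.0 against 16.1 CPM) and spleen CD137 plus cells (83.2 against 14.1 CPM). It did so for Psmg1 in tumour CD137 plus cells (33.8 against 17.6 CPM).

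The immunoproteasome share was 79.5% in responding and 73.9% in other tumour CD137 minus cells, 80.4% and 73.2% in tumour CD137 plus cells and 81.1% and 76.2% in spleen CD137 minus cells, with intervals apart. In spleen CD137 plus cells it was 80.1% (74.6 to 84.8) and 76.1%, and these overlapped. Of the peptide-loading genes, Tap1 had ratios of 0.78, 0.92, 0.70 and 0.80 and Tapbp, which bridges the transporter to class I molecules, of 0.67, 0.73, 0.72 and 0.64 in the 4 libraries. Plasmacytoid markers, which include the interferon-stimulated Bst2, summed to 665 against 330, 651 against 403, 553 against 198 and 524 against 204 CPM in responding against other cells, and B cell markers to 194 against 379, 904 against 538, 297 against 454 and 341 against 360 CPM, and their part was not tested.

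**Figure D4:**
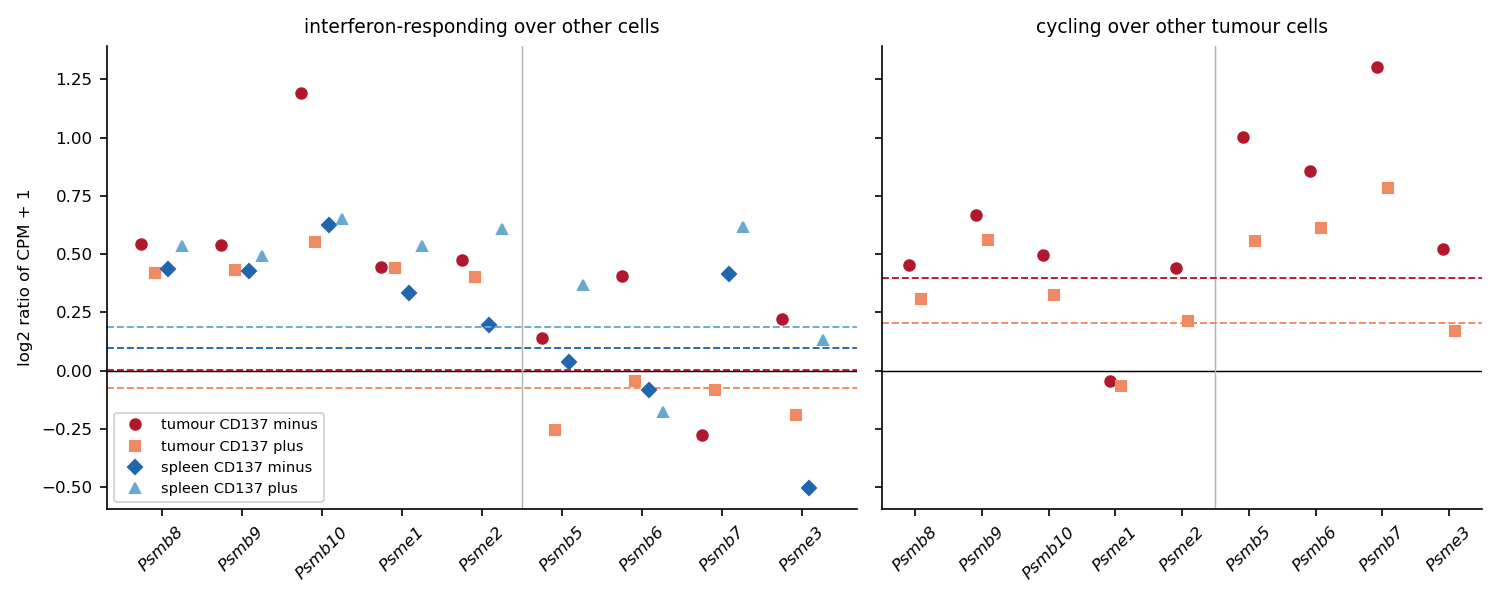
Left, log2 ratio of interferon-responding over other cells in the 4 libraries for the 5 interferon-induced members and for Psmb5, Psmb6, Psmb7 and Psme3. Right, log2 ratio of cycling over other cells in the tumour CD137 minus and CD137 plus libraries for the same genes; Psmb8, Psmb9, Psmb10, Psme1 and Psme2 lie above 0 in all 4 libraries on the left, and Psmb7 lies highest on the right. Dashed lines mark the medians of all genes in each library.

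Between the CD137 minus and plus libraries the proteasome genes differed little, and the direction differs between CPM and mean deposited values. In CPM, 0 of 43 measured members were higher or lower by 0.5 in tumour CD137 minus cells, against 1.63% higher and 5.59% lower over all genes. The member median was -0.25, beside -0.14 over all genes, and 41 of the 43 lay below 0, whereas by the difference of mean deposited values, which are not divided by the larger totals per cell of the tumour CD137 minus library, 33 of the 43 lay above 0. With the all-gene median subtracted 35 of 43 lay below 0. Without ribosomal protein genes in the total 39 of 46 did, and by the mean over cells of CPM per cell 41 of 42. The members furthest below were Psmb7 (-0.49), Psma4 (-0.46), Psma1 (-0.46) and Psme3 (-0.45), and Psmg1 (0.13) and Psmg4 (0.04) lay above 0, with Psme1 next at -0.03. Psmg1 reached 20 CPM in CD137 minus cells alone (20.1 against 18.3 CPM), so its side of 0 was set by the filter. Psmb8 had a log2 ratio of -0.31, Psmb9 of -0.19, Psmb10 of -0.20, Psmb5 of -0.25, Psmb6 of -0.28, Psme2 of -0.25 and Psmg2 of -0.07.

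In spleen, 0 of 44 members were higher or lower by 0.5 in CD137 minus cells, against 1.41% and 10.5% of all genes. The member median was 0.07, beside -0.08 over all genes, and 29 of 44 lay above 0 in CPM but 1 of 44 by mean deposited values, the totals per cell being larger in the spleen CD137 plus library. With the all-gene median subtracted 36 of 44 lay above 0. Without ribosomal protein genes in the total 34 of 45 did, and by the mean over cells of CPM per cell 29 of 44. Psma4 (0.36), Psmg1 (0.31) and the regulatory subunit Psmd3 (0.30) were the highest and Psmc6 (-0.21), Psmd1 (-0.19) and Psmd11 (-0.17) the lowest. The catalytic genes lay between -0.06 for Psmb7 and 0.14 for Psmb8, with Psmb9 at -0.05, Psmb10 at -0.02, Psmb5 at 0.06 and Psmb6 at 0.10. Psme1 had a ratio of 0.02, Psme2 of 0.11, Psme3 of -0.15, Psmg2 of -0.05, Psmg3 of 0.26 and Psmg4 of 0.16. Psmg3 reached 20 CPM in CD137 minus cells alone (21.3 against 17.6 CPM), so its side of 0 was set by the filter. In CPM 26 of 43 members lay below 0 in tumour and above 0 in spleen, as did 30.5% of all genes.

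At like Pdcd1 state most members again lay below 0 in CPM in tumour CD137 minus over plus. Among cells with Pdcd1 above 0, 0 of 43 members were higher and 1 lower by 0.5 in CD137 minus cells, the base chaperone Psmd5 (-0.53), against 2.96% and 2.74% of all genes, and the median was -0.15 beside -0.02. Among cells with Pdcd1 at 0, 0 of 42 were higher and 4 lower, Psmb7 (-0.59), Psmd10 (-0.58), Psmd12 (-0.57) and Psma4 (-0.50), against 1.56% and 9.45% of all genes, and the median was -0.25 beside -0.14. In CPM 35 of 41 members lay below 0 at both states, as did 46.2% of all genes, but on the deposited scale 41 of 43 and 33 of 42 lay above 0. In cells with Pdcd1 above 0 the next lowest were Psme3 (-0.48), Psma1 (-0.37) and Psmd1 (-0.37) and the highest Psma3 (0.13), Psme4 (0.10) and Psmg4 (0.10). Psme4 reached 20 CPM in CD137 minus cells alone there (20.7 against 19.2 CPM), so its side of 0 was set by the filter. The filter also set the side of Psmd5 there (19.8 against 29.0 CPM). In cells with Pdcd1 at 0 it set that of Psmd10 (18.8 against 28.6 CPM) and Psmg1 (21.1 against 19.7 CPM). Psmb8 had ratios of -0.21 and -0.28, Psmb9 of 0.06 and -0.32, Psmb10 of -0.15 and -0.24, Psmb5 of -0.17 and -0.18 and Psmb6 of -0.20 and -0.26 at Pdcd1 above 0 and at 0, and Psmb7 had -0.27 at Pdcd1 above 0. Psme1 had ratios of -0.05 and -0.07, Psme2 of -0.21 and -0.26, Psmg2 of -0.22 and 0.08 in the same order, and at Pdcd1 at 0 Psmg1 (0.09) was the highest, before Psmg2 and Psmc5 (-0.03), with Psme3 at -0.33 and Psmg4 at -0.04.

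**Figure D5:**
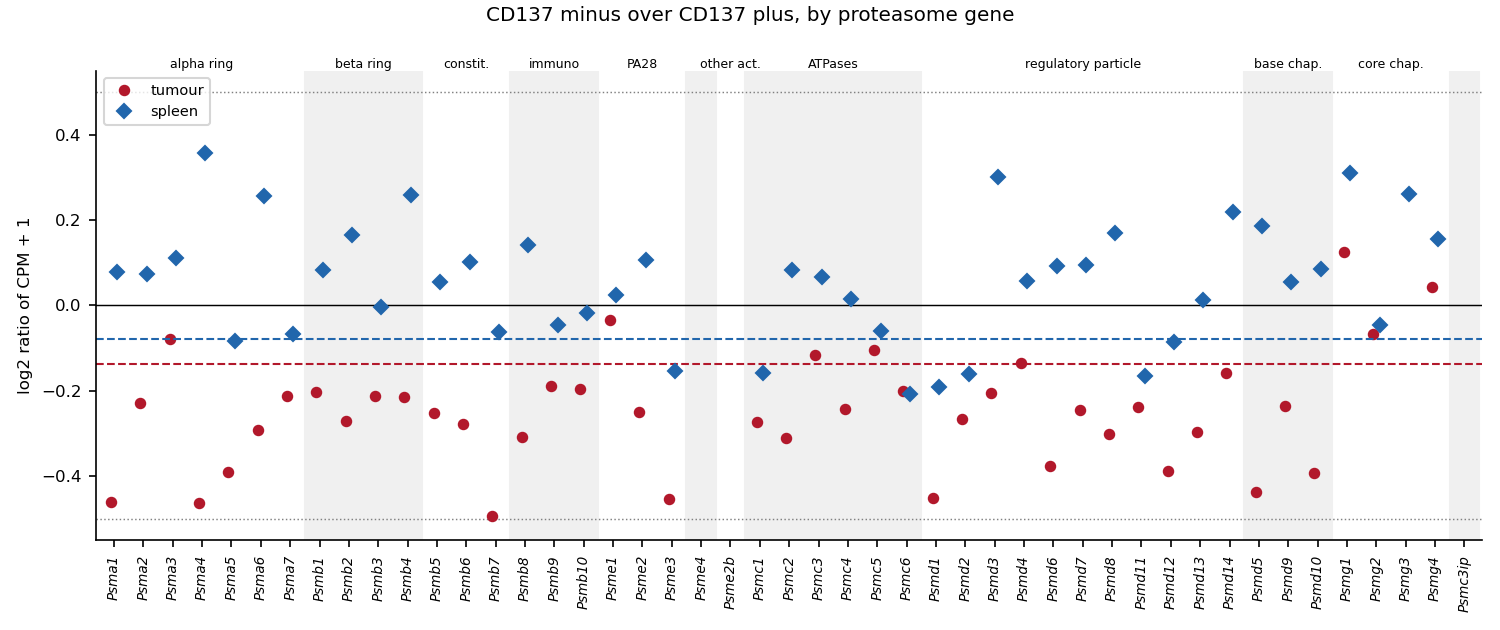
Log2 ratio of each measured member in CD137 minus over CD137 plus cells, in tumour (red circles) and spleen (blue diamonds), by role. Dashed lines mark the medians of all genes, -0.14 and -0.08, and dotted lines the limit of 0.5, which 0 members pass in CPM.

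In tumour over spleen, Psmb10 and the core chaperones Psmg1 and Psmg4 lay below 0 in both CD137 states, in CPM and by mean deposited values. Other members did so in CPM, among them Psmc1 (-0.43 and -0.32), Psme1, Psme3 and Psmg2. In CD137 plus cells Psmg1 reached 20 CPM in spleen alone (27.7 against 18.3 CPM), so its side of 0 there was set by the filter. Keeping to 1 side of 0 was common, since 22.1% of all genes lay on opposite sides in the 2 states. In CD137 minus cells 0 of 44 members were higher and 5 lower by 0.5 in tumour, against 22.2% and 14.4% of all genes: Psmd5 (-0.86), Psmg1 (-0.76), Psmg4 (-0.52), Psmb10 (-0.51) and Psme3 (-0.50). Psmd5 reached 20 CPM in spleen alone (33.1 against 17.8 CPM), so its side of 0 was set by the filter. The member median was -0.12, beside 0.03, with Psma3 (0.28), Psmd9 (0.27) and Psmb3 (0.22) highest. In CD137 plus cells 6 of 43 were higher and 1 lower, against 24.4% and 17.4% of all genes: Psma4 (0.79), Psma1 (0.59), Psmb2 (0.59), Psmd9 (0.56), Psmb7 (0.54) and Psmd8 (0.51) were higher and Psmg1 (-0.57) lower, with Psmg4 (-0.41) and Psmb10 (-0.33) next. The member median was 0.18, beside 0.07. The split depends on scaling: with ribosomal protein genes out of the total it was 0 higher and 9 lower in CD137 minus and 1 higher and 4 lower in CD137 plus cells, where the median was -0.02, and by mean deposited values 34 of 44 and 5 of 43 members lay above 0. On the total without ribosomal protein genes the all-gene medians were -0.10 and -0.12, and the share of all genes past 0.5 was not counted.

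The other members always reported had these tumour over spleen ratios. Psmb8 had -0.22 in CD137 minus and 0.23 in CD137 plus cells, Psmb9 0.03 and 0.18, Psmb5 -0.05 and 0.25 and Psmb6 -0.06 and 0.33, while Psmb7 had 0.11 in CD137 minus cells. Psme1 had -0.20 and -0.14, Psme2 -0.19 and 0.16, Psmg2 -0.15 and -0.13, Psme3 -0.20 in CD137 plus cells and Psmg3 -0.47 in CD137 minus cells. Psmg3 reached 20 CPM in spleen alone (21.3 against 15.1 CPM), so its side of 0 was set by the filter. In CPM 19 of 43 members lay below 0 in CD137 minus and above 0 in CD137 plus cells, as did 12.7% of all genes.

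Genes that work beside the proteasome were read from 2 lists. Of 28 partners in the table, such as Pomp, which assists core assembly, ubiquitin-handling factors and shuttle proteins, 0 of 23 measured passed 0.5 in either direction between CD137 minus and plus tumour cells (1.63% of all genes higher, 5.59% lower) and 1 of 20 was lower in spleen CD137 minus cells (10.5% of all genes), Bag6 (-0.60), a chaperone of stray membrane proteins. In tumour over spleen 4 of 23 were higher and 1 lower in CD137 minus cells (22.2% and 14.4% of all genes) and 5 of 23 higher and 2 lower in CD137 plus cells (24.4% and 17.4%). With Pdcd1 above 0, 10 of 24 were higher and 0 lower in CD137 minus cells (43.6% and 4.31% of all genes) and 3 of 25 higher and 1 lower in CD137 plus cells (30.8% and 4.16%). Of 17 peptide-loading genes, 4 of 17 measured were lower in tumour CD137 minus than plus cells in CPM, against 5.59% of all genes, and 2 were with the all-gene median subtracted. The 4 were the transcription factor Irf8 (-0.74), Tap1 (-0.66), the ISG15 conjugating enzyme Ube2l6 (-0.58) and Tap2 (-0.54). Ube2l6 reached 20 CPM in CD137 plus cells alone (30.0 against 19.7 CPM), so its side of 0 was set by the filter. In spleen 2 of 16 were lower, against 10.5% of all genes, Irf8 (-0.67) and Nlrc5 (-0.65), the class I transactivator. The filter set the side of Irf8 there, at 30.6 CPM in CD137 plus and 18.9 CPM in CD137 minus cells. In tumour over spleen 4 of 16 were higher and 2 lower in CD137 minus cells (22.2% and 14.4% of all genes) and 5 of 17 higher and 1 lower in CD137 plus cells (24.4% and 17.4%). With Pdcd1 above 0, 9 of 17 were higher and 0 lower in CD137 minus cells and 5 of 17 higher and 0 lower in CD137 plus cells, beside 43.6% and 30.8% of all genes higher, and with the all-gene median subtracted 2 and 1 were higher. Tap1 had 0.79 and 0.52.

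Nearly identical copies limit some of these counts. Of the 47 members 15 had at least 1 annotated pseudogene that matched over 200 bases or more at 90% identity or above, with the most, 7, for Psmb3. Psmb5 had 2 such copies and Psmb6, Psme1 and Psme2 had 1 each, and how the authors' counting split molecules between gene and copy was not tested. Psmb7, Psmb8, Psmb9 and Psmb10 had 0.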

How the data were processed

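The authors' deposited table gives 6965 cells by 12763 genes, with every value the natural log of a whole number to which 1 was added (relative tolerance 1e-12). Seurat 3.0, Cell Ranger 3.0.2 and the build mm10 are named, per the submitters' processing notes, but no source used here states the normalisation. The narrow totals per cell show that a correction for depth was made per library, and the whole numbers are therefore called corrected counts. No count model was fitted to them, but the intervals treat them as counted molecules. Of the deposited columns, 6840 were not used: those kept had 20 CPM and a value in 5% of cells of at least 1 library, or were members, listed genes, Tnfrsf9 or Pdcd1, a choice made after looking at all columns.

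Counts were summed per library or group of cells and divided by the sum over the 5923 used columns. Ratios are log2 with 1 CPM added. Shares have exact Clopper-Pearson and summed counts exact Poisson intervals at 95%. Those on corrected counts are nominal, since how the correction changed the counting error is not known. With 1 library per group no test was run. Of the steps, the log2 ratio alone was tested on simulated data, Poisson library sums without a correction per cell. The software was scipy 1.17.1 and numpy 2.4.6 under Python 3.11.15, with pandas 2.3.3. Copies were found with minimap2 2.31. Promoter sequences are from RefSeq.

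The members, the lists and the splits were chosen with earlier results of these data known. Named in each comparison were the catalytic, activator and core chaperone genes where measured, the 3 members furthest above and below 0 and, where there were 10 or fewer, each past 0.5. Doublets were not called, and no cell was removed except in alternatives. One kept cells with Cd8a or Cd8b1 and none of 6 markers of other cells, and others left out cycling or interferon-responding cells. Alternatives were other pseudocounts, filters, limits, scalings, Pdcd1 cuts and subsets of cells.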

Additional observations from a re-analysis of the deposited data

Results flagged for a closer look

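The members' median log2 ratio of CD137 minus over plus cells lay on opposite sides of 0 in the 2 tissues, at -0.25 in tumour and 0.070 in spleen. The median of tumour over spleen likewise lay at -0.12 in CD137 minus and 0.18 in CD137 plus cells. Among single members, Psma4 had a tumour over spleen ratio of -0.033 in CD137 minus and 0.79 in CD137 plus cells. With 1 library in each group none of these differences was tested, both pairs rest on the same 4 libraries, and by mean deposited values the directions of the counts turned round. Ribosomal protein shares of 35.5% in tumour CD137 minus, 30.1% in tumour CD137 plus, 41.1% in spleen CD137 minus and 38.9% in spleen CD137 plus cells stood beside them, and their part was not tested.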

How the results depend on the processing

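No paired analysis was possible because each group is 1 library. The shares of single catalytic pairs stayed within their intervals in all 114 alternative values, whereas 108 of 2498 alternative log2 ratios of named members lay on the other side of 0: 49 of 231 by mean deposited values, 25 of 231 with the all-gene median subtracted, 20 of 231 without ribosomal protein genes in the total and 14 of 1805 elsewhere. Of the 871 whose reported ratio was at least 0.5 in size, 1 did so, Psmd8 in tumour over spleen of CD137 plus cells, at -0.0082 by mean deposited values. With the all-gene median subtracted, the member medians were -0.11 for tumour CD137 minus over plus (also -0.11 at Pdcd1 at 0), 0.00027 and 0.023 for Pdcd1 above 0 over 0 in CD137 minus and plus cells, 0.39 and 0.32 for cycling over other cells, and 0.18 for interferon-responding over other spleen CD137 plus cells; 1 member was then higher and 4 lower with Pdcd1 above 0 in CD137 minus cells, 0 higher and 2 lower in CD137 plus cells, 14 and 6 higher in cycling cells, and 3 higher in tumour over spleen of CD137 plus cells. With the total taken without ribosomal protein genes, a choice made after seeing the data, the medians were -0.13 for tumour CD137 minus over plus (-0.12 at Pdcd1 at 0), -0.25 and -0.017 for tumour over spleen in CD137 minus and plus cells, 0.18 and 0.18 for Pdcd1 and 0.57 and 0.40 for cycling; 9 members were then lower in tumour over spleen of CD137 minus cells, 1 higher and 4 lower in CD137 plus cells, 6 and 2 higher with Pdcd1 above 0, and 11 higher in cycling CD137 plus cells. At a limit of 0.3, 13 members were lower in tumour CD137 minus over plus, 3 higher in spleen CD137 minus over plus, 9 lower in tumour over spleen of CD137 minus cells, 13 higher and 4 lower in that of CD137 plus cells, and 30 and 27 higher with Pdcd1 above 0. With 10 CPM added, tumour over spleen had 2 lower in CD137 minus cells and 3 higher and 0 lower in CD137 plus cells, and Pdcd1 above 0 had 4 higher in CD137 plus cells. At 50 CPM tumour over spleen had 2 and 0 lower. Without a filter, or with the mean over cells, 1 member was lower in tumour CD137 minus over plus. Without cycling cells 4 were lower there, tumour over spleen had a median of -0.22 with 9 lower in CD137 minus cells and 3 higher in CD137 plus cells, and the immunoproteasome share was 75.2% in tumour CD137 minus cells. Without interferon-responding cells 1 member was higher in spleen CD137 minus over plus. With Pdcd1 of at least 2 counts 11 were higher in CD137 plus cells, and thinned 1 was lower in CD137 minus cells. Without the Psmb8 and Psmb5 pair the immunoproteasome share was 65.9%, 63.5%, 68.7% and 70.1% in tumour CD137 minus, tumour CD137 plus, spleen CD137 minus and spleen CD137 plus cells, 66.1% and 65.7% at Pdcd1 above 0 and at 0 in tumour CD137 minus cells and 62.8% and 64.6% in tumour CD137 plus cells; without the Psmb9 and Psmb6 pair it was 79.1%, 78.7%, 82.0% and 81.2%, 77.9% and 80.1%, and 77.9% and 79.8%; and without the Psmb10 and Psmb7 pair it was 74.4% in tumour CD137 plus, 74.4% in those with Pdcd1 above 0 and 75.6% in spleen CD137 minus cells. The cause of these moves was not tested. The share of all genes past the limit was not counted under these alternatives, so their member counts cannot be set against all genes. The number of cells limits the spleen CD137 plus library most, where 23 interferon-responding cells leave wide intervals. A Pdcd1 count of 0 depends on the depth of the cell: with cells thinned, 33.9% of CD137 minus and 50.3% of CD137 plus tumour cells had a Pdcd1 value.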
